A study of Mus musculus with 46 samples.

Results

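The dorsal raphe nucleus was compared between P15 pups and adults for the balance of the C57 and CAST copies of each gene, measured as the log2 ratio of CAST over C57 counts in each animal. The genes described are the 7994 autosomal genes, of 15499 in the deposited tables, whose C57 and CAST counts summed to a mean of 100 or more at P15 and again in adults. Peli1 lay just inside this limit with a smaller stage mean of 100 counts and a ratio change of -0.12, and Pds5a lay just outside it with 99.9 counts and a ratio change of 0.02. All animals were female F1 hybrids of the C57 and CAST mouse strains, bred in both directions as crosses named F1i and F1r. The P15 groups held 7 animals of each cross and the adult groups held 9 libraries of each cross, giving 14 and 18 libraries. The maternal strain of each cross is not given in the labels, which name no further treatment or allele, and give no age for the adults beyond that word. The P5 animals of the same series, 7 of each cross, are given beside some results as values only. The labels of the adult libraries carry a pair of numbers whose meaning is not stated, so p-values measure the spread between libraries, part of which may be technical if several libraries came from 1 animal or litter. CAST shares of X-linked counts differed by 2.69 to 12.4 percentage points among adult libraries with the same first number.

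In an F1 hybrid both copies of a gene sit in the same nuclei and see the same regulatory proteins, so unequal expression of the copies is ascribed to sequence or marks carried on the chromosome itself. This is called a cis effect. Counts can also be unequal because reads of one copy are placed less often or match another gene. A cis effect can depend on cell type and on developmental state, since an enhancer or splice site variant has an effect only in cells that use it. The dorsal raphe nucleus is the largest source of serotonin neurons projecting to the forebrain, and it also holds GABA, glutamate and peptide neurons, astrocytes, oligodendrocytes, microglia and vessels. Between the second postnatal week and adulthood its oligodendrocytes mature and its synapses are remodelled.

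Library totals ran from 3692778 to 8032987 counts at P15 and from 4912934 to 13085952 in adults. Defining serotonin genes were present at both stages. Of the 17 serotonergic list genes in the data, 11 met the count limit, Tph2, Slc6a4 and Fev among them. The 17 summed to 1461 to 2282 CPM (counts scaled to a library's total) in P15 libraries and 1678 to 2208 in adult ones. The libraries differed in how transcript levels went with GC content, the percentage of G and C bases in the longest annotated transcript. The slope of a library's log2 level on GC content, against the mean of the 32 libraries and for 10 points of GC content, ran from -0.34 to 0.09 at P15 (median -0.18), from -0.37 to 0.27 in adults (median 0.20) and from 0.27 to 0.40 at P5. The low end in adults was F1i replicate 1 alone, and the next lowest adult library, F1r replicate 2, was at -0.07. The P15 libraries also stood apart from each other along 1 axis, the first principal component of their total levels with cross means removed, which held 61.9% of the variance and is called the level score here. F1i replicates 1 and 2 and F1r replicate 1 had the highest level scores, 0.42, 0.46 and 0.34, and F1r replicate 5, F1i replicate 6 and F1r replicate 6 had the lowest, -0.33, -0.31 and -0.28. Score and GC slope went together: the 3 libraries of highest score had slopes of 0.06, 0.09 and -0.002 in the order given, and the 3 of lowest score -0.27, -0.29 and -0.27, so fits by slope and fits by score are not separate checks. Since the score is built from sums of both alleles, it uses no allele ratio. For genes whose ratio followed the score, changes are also given with the slope in the fit and without those 3 highest or 3 lowest libraries. The slope differed between stages, so a fit with it cannot fully separate slope from stage. The part of the libraries' differences in any result was not tested beyond that.

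The allele ratio changed between P15 and adults in 1581 of the 7994 genes, 19.8% (edgeR quasi-likelihood test with Benjamini-Hochberg adjustment over 12471 genes at 0.05), against 15.2% of all genes tested. The ratio rose toward CAST in 758 genes, 9.48%, and fell toward C57 in 823, 10.3%, against 7.41% and 7.75% of all genes tested. Most changes were small. Among the 1581 genes the change had a median size of 0.19 log2 units, with quartiles of 0.13 and 0.27; 81 changed by 0.5 or more and 11 by 1 or more. The median standard error over all 7994 genes was 0.05. Of the 6413 genes not called, 5356 (83.5%) had a 95% interval inside 0.25 log2 units on either side of 0. The share called rose with depth, from 9.77% of genes with a mean of 100 to 200 counts to 43.3% of the 367 genes with 3000 or more. With a term for the allele times the GC slope of each library, 934 genes were called, 862 of them among the 1581. Without the 3 P15 libraries highest on the level score 1523 genes were called, and without the 3 lowest 1306.

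A strain effect was called in 4975 genes at P15 (62.2%) and in 5720 in adults (71.6%). Of the 1581 genes with a changed ratio, 540 (34.2%) favoured the same strain at both stages by less in adults and 310 (19.6%) by more, beside 31.4% and 20.5% of all 7994 genes. Another 315 (19.9%, beside 18%) had a called strain effect in adults only and 279 (17.6%, beside 8.67%) at P15 only. Opposite strains were favoured at the 2 stages in 132 (8.35%, beside 1.65%), and 5 had no called strain effect at either stage (0.316%, beside 19.8%). These classes use the same ratios as the call. The ratios of all 14 P15 and all 18 adult libraries did not overlap for 58 of the 7994 genes, 0.726%, against 0.545% of all genes tested.

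**Figure D1:**
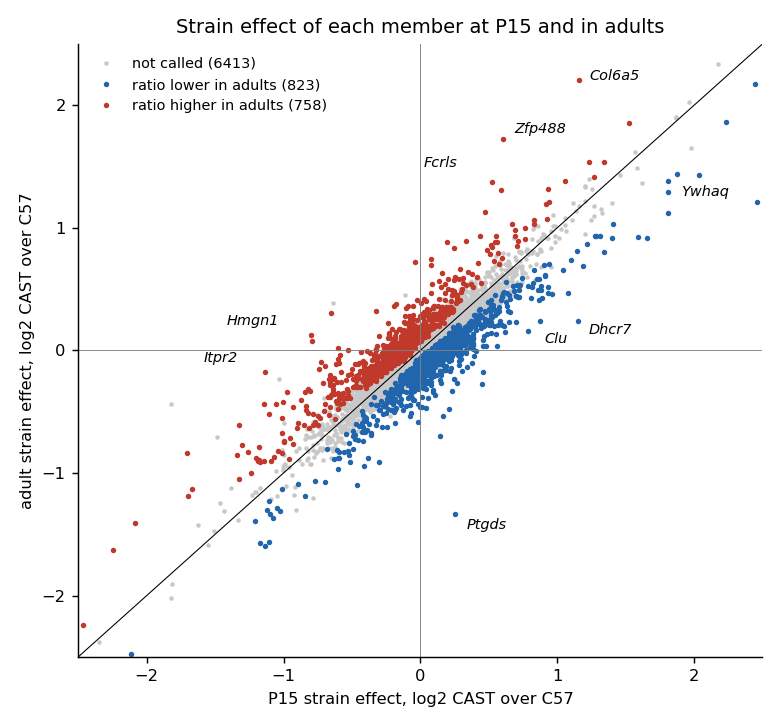
Strain effect (log2 CAST over C57, averaged over both crosses) of each gene at P15 on the horizontal axis and in adults on the vertical axis; each point is 1 of the 7994 genes and the diagonal marks no change. The 758 genes with a higher ratio in adults (red) lie above the diagonal and the 823 with a lower one (blue) below it, while 37 genes fall outside the axis limit of 2.5 log2 units and are not drawn.

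Ptgds, which encodes the brain's prostaglandin D synthase, had the largest shift of balance among genes with ample counts of both alleles and little sequence shared with other genes. Its CAST share of counts was 47.4% in the lowest, 54.2% in the median and 59.6% in the highest P15 library, and 24.4%, 27.9% and 37.4% in adults. The groups did not overlap, and the favoured strain went from slightly CAST to C57. The log2 ratio was 0.26 at P15 and -1.33 in adults, a change of -1.59 ± 0.07 (SE, edgeR adjusted p = 1.1e-24). Its total level was 1.49 ± 0.30 log2 units higher in adults (adjusted p = 3.1e-05), with the C57 allele 2.14 log2 units higher (adjusted p = 8.37e-09) and no called change of the CAST allele, at 0.54. The P15 level rested in part on F1r replicate 3, which held 471 CPM against 24.7 to 120 in the other 13 P15 libraries and 143 to 338 in adults. Without that library the ratio change was -1.52 and the level change 2.11. At P5 the CAST share ran from 29% to 75% on few counts. Leptomeninges and choroid plexus are known to hold much of this transcript. The 10 ependymal and choroid plexus list genes in the data, 6 of them above the count limit, summed to 284 to 606 CPM at P15. In adults the 10 summed to 387 to 626 CPM, and the part of these tissues or of other cell types in the Ptgds result was not tested.

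Several genes of glia shifted while their total level dropped. Itpr2, an endoplasmic reticulum calcium channel that serves as a marker of newly formed oligodendrocytes, had a CAST share of 28.5%, 31% and 34.4% (lowest, median, highest) at P15 and 41.8%, 47% and 50.8% in adults. The ratio rose by 0.96 ± 0.04 (adjusted p = 5.9e-25) as the total level fell by 0.82 log2 units, and the C57 predominance was smaller in adults. The P5 median of 41.2% lay between those of P15 and adults, with a range of 38.9% to 42.6%. Zfp488, a zinc finger repressor of the oligodendrocyte lineage, moved further toward CAST. Its share went from 54.4%, 61% and 63.1% to 72%, 76.7% and 82%, a rise of 1.12 ± 0.07 (adjusted p = 1.3e-18), with a total level 1.40 log2 units lower; 15.6% of its 50-base transcript windows also occur in other genes. Fcrls, a microglial scavenger receptor gene, had shares of 57.1%, 58.8% and 62.5% at P15 and 65.9%, 72.7% and 77.7% in adults. The rise was 0.86 ± 0.06 (adjusted p = 3.7e-17), beside a total level 1.28 log2 units lower. In all 3 genes both alleles fell in level, the C57 allele by more, and no P15 library overlapped an adult one. Other glial genes of lower total level moved toward C57. The ratios of Mal, Cnp and Neu4, described below, changed by -0.33, -0.15 and -0.32, beside level changes of -1.21, -1.59 and -1.75. Of 14 myelin and mature oligodendrocyte genes, 5 had higher and 6 lower ratios in adults. In bulk tissue, fewer cells of a type and less of the transcript in each cell cannot be told apart.

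Genes whose total level increased shifted too. Il33, the gene of a nuclear cytokine, went from shares of 52.3%, 59% and 62.3% to 65.2%, 68.6% and 71%, with no overlap. Its ratio rose by 0.66 ± 0.04 (adjusted p = 9.1e-18) and its total level by 1.37 log2 units. Ccdc149, a coiled-coil gene, was balanced at P15 with a median share of 49.1% (42.5% to 57.7%) and favoured CAST in adults at 61.4% (60.2% to 66.1%). The ratio rose by 0.76 ± 0.07 (adjusted p = 1.4e-12) and the level by 1.70 log2 units. Gpr153, an orphan receptor gene, had a ratio 0.96 ± 0.13 higher in adults (adjusted p = 2.1e-07), yet its adult shares were wide, 39% to 64.4%, and overlapped those at P15, 34.4% to 43.8%. Its level change of 0.96 became 0.58 with the GC slope in the fit.

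Clu, the gene of the secreted chaperone clusterin and one of the most abundant astrocyte transcripts, lost most of a P15 preference for CAST. Its share was 61.8%, 62.9% and 67.1% at P15 and 50.7%, 52.9% and 54.2% in adults, with no overlap. The ratio fell by 0.63 ± 0.03 (adjusted p = 1.7e-25), and the 14 P5 libraries lay at 52.0% to 57%, nearer to the adults. The total level differed by -0.17 ± 0.06, a difference that was not called without the 3 P15 libraries lowest on the level score (adjusted p = 0.0773). Col6a5, a collagen VI chain gene, went the other way without a called change in level (-0.06 ± 0.09). Its shares were 57.6%, 68.2% and 81.7% at P15 and 77.7%, 83.1% and 85.3% in adults, a rise of 1.05 ± 0.10 (adjusted p = 2.5e-11), and the ranges overlapped through 1 P15 library. Shisa3, an inhibitor of growth factor receptor maturation, and Chrna6, a nicotinic receptor subunit gene, both had ratio changes of 0.72, with standard errors of 0.09 and 0.10; Shisa3 moved away from balance and Chrna6 toward it.

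**Figure D2:**
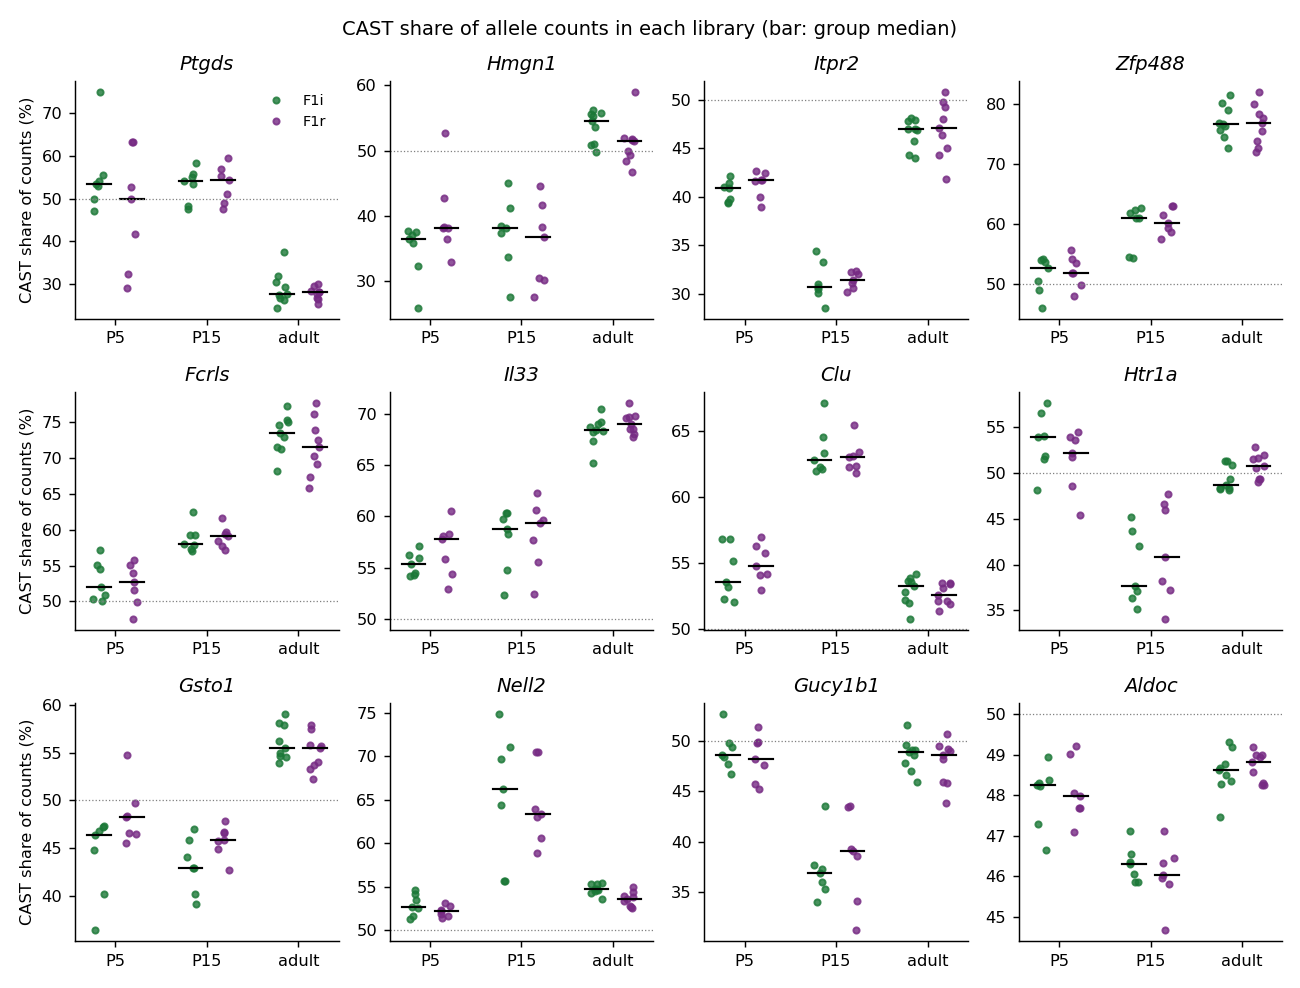
CAST share of allele counts (percent, vertical axis) of 12 genes in every library at P5, P15 and in adults, with F1i in green, F1r in purple and bars at group medians; the dotted line marks 50%. Ptgds falls from a P15 median of 54.2% to an adult median of 27.9%, Itpr2 rises from 31% to 47%, and Clu at P15 stands above both P5 and adults.

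Among the 132 genes that favoured opposite strains at the 2 stages, 105 had a mean of 10 or more counts of each allele at each stage, little shared sequence, and a call that held when adult libraries were summed over the first label number. Hmgn1, a nucleosome-binding protein gene, went from shares of 27.6%, 37.8% and 45% to 46.7%, 51.7% and 59%. The ratio rose by 0.92 ± 0.09 (adjusted p = 3.2e-11), the groups did not overlap, and the total level changed by 0.04 ± 0.07, which was not called (0.22 with the GC slope, adjusted p = 0.00609). Gsto1, an omega class glutathione transferase gene, went from 39.1%, 45.3% and 47.8% to 52.2%, 55.4% and 59%, again with no overlap, a rise of 0.65 ± 0.04 (adjusted p = 9.5e-18) beside a total level 0.76 log2 units lower. Kif3a, which encodes a kinesin motor of cilia and axons, moved by a small but uniform amount. Its shares were 51.6%, 52.4% and 53.8% at P15 and 45.9%, 47% and 48.8% in adults, and the ratio fell by 0.31 ± 0.02 (adjusted p = 9.2e-20). Mal, a proteolipid of compact myelin, crossed from 54.7% (53.1% to 56.2%) to 49.3% (47.4% to 52.1%), and Tmem88b, a membrane protein gene, from 55.2% (50.1% to 57.8%) to 45.7% (42.7% to 47.7%). Their ratios fell by 0.33 ± 0.02 and 0.54 ± 0.04, and neither overlapped between stages.

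The ratio of a set of genes followed the level score among P15 libraries. The relation was computed for all 87 genes named by the rule in the methods, over 14 P15 libraries with cross means removed, and 14 genes passed by both Pearson's r and Spearman's rho (Benjamini-Hochberg adjusted permutation p). These were Wars, Nell2, Gnai1, Abat, Uqcrc1, Glul, Gucy1b1, Itfg2, Htr1a, Dhcr7, Mospd3, Dclk1, Kif5c and Sst. For Nell2, a secreted neuronal glycoprotein gene, r was -0.94 (p = 2e-05, adjusted p = 0.000522), rho was -0.92 (p = 9e-05, adjusted p = 0.0013), and r without the 2 libraries farthest from the median score was -0.89. Its CAST share ran from 55.7% to 74.9% at P15 (median 64.2%) and from 52.6% to 55.4% in adults, and the 3 P15 libraries of highest score had the 3 lowest shares, nearest to the adults. P5 libraries lay at 51.3% to 54.7%. The change between stages was -0.64 ± 0.06, and -0.50 with the GC slope, -0.78 without the 3 libraries of highest score and -0.54 without the 3 of lowest. For Htr1a, the inhibitory serotonin autoreceptor gene of raphe neurons, r was 0.87 (p = 7e-05, adjusted p = 0.000677), rho was 0.83 (p = 0.00035, adjusted p = 0.00304), and r without the 2 farthest libraries was 0.85. The Htr1a change was 0.53, and 0.47, 0.61 and 0.46 with the slope, without the 3 highest and without the 3 lowest. In the same order of these 3 fits, changes were -0.53, -0.84 and -0.64 for Wars, -0.31, -0.50 and -0.34 for Uqcrc1 and -0.35, -0.53 and -0.37 for Sst. They were 0.57, 0.68 and 0.55 for Gucy1b1, -0.72, -1.15 and -0.79 for Dhcr7 and -0.58, -0.79 and -0.61 for Itfg2. Gnai1 was at -0.33, -0.42 and -0.31, Mospd3 at -0.44, -0.74 and -0.56, and Kif5c at -0.07, -0.13 and -0.09. Glul was at 0.14, 0.27 and 0.16, Abat at 0.08, 0.22 and 0.13, and Dclk1 at 0.15, 0.29 and 0.19, so that each of the 14 changes was largest without the libraries of highest score. The Itpr2 and Clu ratios did not pass this test, with r of 0.48 (permutation p = 0.142) and 0.31 (permutation p = 0.348).

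**Figure D3:**
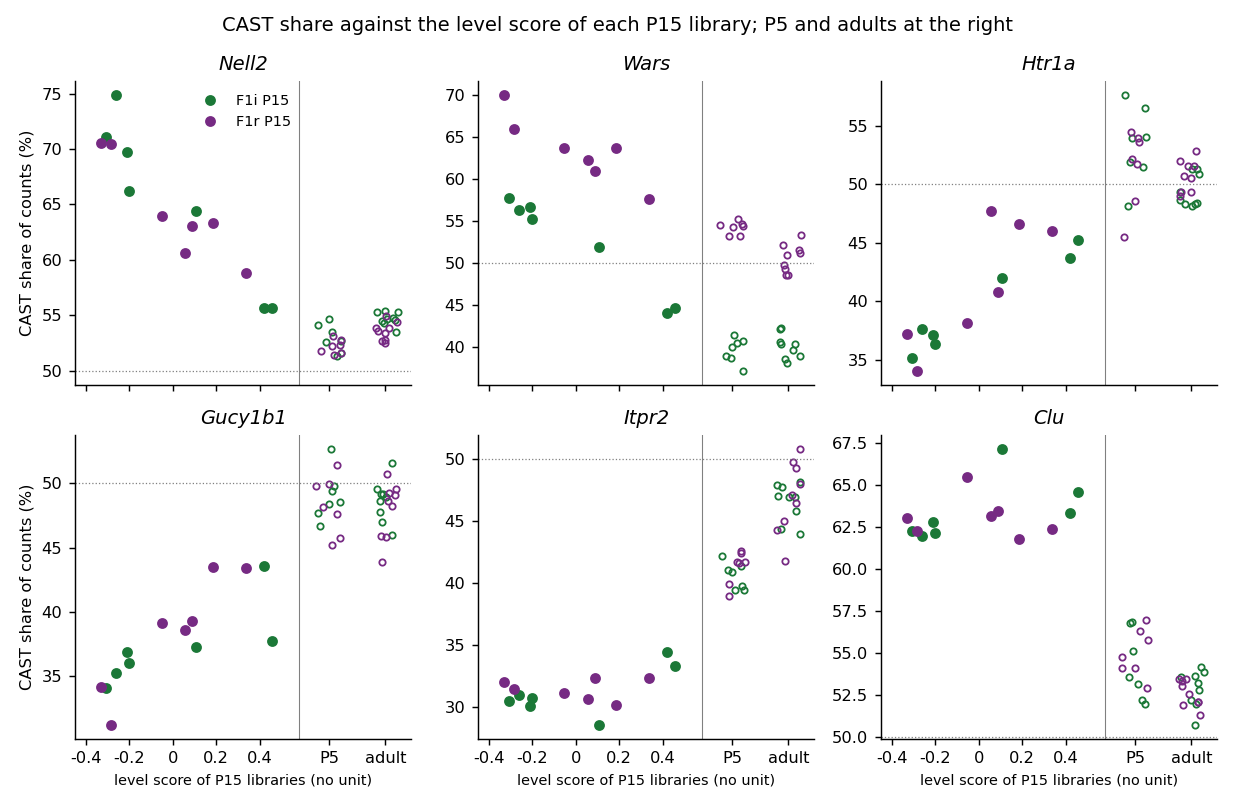
CAST share of counts (percent) of 6 genes against the level score of each P15 library (filled points, F1i green, F1r purple), with the P5 and adult libraries as open points at the right of the grey line. Nell2 and Wars shares fall with the score and Htr1a and Gucy1b1 shares rise with it, while the P15 points of Itpr2 and Clu stay apart from the adult points at every score.

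Over all 7994 genes, those whose P15 ratio tracked the score were called more often: 40.6% of the 525 genes with an r of 0.6 or more in size were called for the change with stage, against 17.3% of the 4940 with an r under 0.3. Of the 213 called genes among those 525, 186 changed between P15 and adults in the direction of their r. The same held for 470 of the 856 called genes with an r under 0.3. These groups were not matched for depth, which also goes with the share called. Wars, the tryptophanyl transfer RNA synthetase gene, shows both the score and a difference between crosses. Its CAST share at P15 was 44.0% to 57.7% in F1i and 57.6% to 70.0% in F1r, and in adults 38.1% to 42.3% and 48.6% to 53.3%. The ratio change was -0.72 ± 0.05 (adjusted p = 3e-15) and -0.53 with the GC slope. Dhcr7, a late enzyme of cholesterol synthesis, had shares of 55.2%, 71.5% and 77.9% at P15 and 50.5%, 54.3% and 57.2% in adults, and its change of -0.91 ± 0.10 (adjusted p = 7.4e-11) ran from -0.72 with the GC slope to -1.15 without the libraries of highest score. Gucy1b1, the beta subunit of the nitric oxide receptor guanylate cyclase, went from 31.2%, 37.5% and 43.6% to 43.8%, 48.8% and 51.6%, beside 45.2% to 52.7% at P5. Its ratio rose by 0.63 ± 0.05 (adjusted p = 5.4e-15), or by 0.57 with the GC slope. Of the 87 genes, 77 were still called with the GC slope, 84 without the 3 libraries of highest score and 83 without the 3 of lowest, and none reversed. Those not called with the GC slope included Gm6969, Selplg, Abat, Hk1, Insig1, H2-Ab1, Car8, Nid1 and Rnf122.

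The largest ratio changes of all belonged mostly to genes with almost no C57 counts or with transcript sequence also found in another gene. Of the 11 genes that changed by 1 or more, 7 had over 5% of their 50-base transcript windows in another gene, a point that bears on reads of 50 bases, and how the authors placed such reads is not given in the sources used here. Of genes with more than 5% shared windows, 22% were called (391 of 1780), against 19.2% of the others (1190 of 6214). The C57 share of Pfdn5, a subunit of the prefoldin chaperone, was close to 0 at P15. Its CAST share was 96.8%, 98.3% and 99.5% at P15 on 1 to 8 C57 counts a library, and 76.7%, 82.4% and 85.6% in adults on 55 to 177 C57 counts. The ratio fell by 3.59 ± 0.15 (adjusted p = 1.2e-25), with 17.9% of its windows shared. P5 libraries held 0 to 4 C57 counts of Pfdn5. Ywhaq, which encodes an adaptor protein that binds phosphorylated partners, went from 79.6%, 85.8% and 88.6% to 65%, 69.5% and 74.3%, and its ratio fell by 1.25 ± 0.07 (adjusted p = 1.4e-19), with 28.9% of its windows shared. Tusc3, a subunit of the oligosaccharyl transferase, had only 0.263% of its windows shared. Its CAST share was 92.2%, 95.1% and 98.7% at P15, on 2 to 10 C57 counts, and 74.6%, 80.6% and 85.8% in adults, on 21 to 86, and the ratio fell by 2.41 ± 0.14 (adjusted p = 9.2e-20); P5 libraries lay at 85.1% to 89.8%.

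To show what sharing means at the level of a read, a stretch of Pfdn5 (chromosome 15, transcript bases 151 to 225) and of Ywhaq (chromosome 12, transcript bases 733 to 807) from GENCODE transcripts of the GRCm38 build is given, 5′ to 3′ on the transcript strand. Capitals mark 50 bases that also occur without a mismatch in Gm5644 (for Pfdn5) or in Gm2423 and Ywhaq-ps3 (for Ywhaq), and lower case marks the next 25 bases.
Pfdn5: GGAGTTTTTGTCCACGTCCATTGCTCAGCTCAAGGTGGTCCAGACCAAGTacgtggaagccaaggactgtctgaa
Ywhaq: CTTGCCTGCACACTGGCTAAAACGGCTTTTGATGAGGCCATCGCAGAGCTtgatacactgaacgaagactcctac
A 50-base read that begins at the first base of either stretch matches each of the genes named for it in these transcripts. Of the 1530 windows of Pfdn5, 274 are shared, 158 of them with Gm5644 and 116 with Myg1, and 882 of the 3054 windows of Ywhaq are shared with 87 genes.

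For 3 genes the C57 counts were too few for a fold. Gm14038 had 0 C57 counts in every P15 library beside 71 to 150 CAST counts, which allows up to 3 C57 counts in a library, and 1 to 7 C57 counts in adults beside 72 to 221 CAST counts. Rps12, a small ribosomal subunit gene, had 0 to 2 C57 counts at P15 beside 413 to 725 CAST counts and 1 to 13 in adults beside 758 to 1614. Gm6969 had 0 to 3 C57 counts at P15 and 0 to 4 in adults beside 515 to 1850 CAST counts, and its call (adjusted p = 0.0406) did not hold with DESeq2 or with the GC slope. At P5 the C57 counts were 0 in every library for Gm14038, 0 to 1 for Rps12 and 0 to 3 for Gm6969. The bound of 3 for Gm14038 covers counting error only and holds for each library taken alone, not for the 14 P15 libraries together.

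Members of functional gene lists are described by their counts, beside the 19.8% called and the median ratio change of -0.00135 over all 7994 genes. The lists were made with earlier results of these data known and no test of a list was made. Myelin and mature oligodendrocyte genes were called most often, 11 of 14 above the count limit, with 5 higher and 6 lower ratios in adults and a median change of -0.04. They are among the most deeply counted genes here, with a median mean count of 3136. Their shifts were mostly a few percent of counts. Mbp, the myelin basic protein gene, went from a median CAST share of 48.7% to 49.4% (change 0.04 ± 0.01, adjusted p = 0.028), and Cnp, a nucleotide phosphodiesterase of oligodendrocytes, from 54.1% to 51.5% (-0.15 ± 0.01, adjusted p = 1.6e-11). Car2, the cytosolic carbonic anhydrase gene, moved toward balance from 43.5% to 49.5% (0.35 ± 0.04, adjusted p = 8.1e-11). In total level 9 of the 14 were lower and 3 higher in adults, with a median level change of -0.94. All 18 list genes in the data summed to 8880 to 13219 CPM in adults against 19512 to 34485 at P15. The part of these level changes in the ratio changes was not tested. In the oligodendrocyte precursor list 5 of 13 were called, 3 up and 2 down. Gpr17, a receptor of differentiating precursors, went from 46.4% (45.3% to 47.3%) to 50.4% (47.5% to 55%), a rise of 0.23 ± 0.03 (adjusted p = 8.7e-10) with no overlap, while its total level fell by 2.57 log2 units. Neu4, a sialidase gene, went from 60.5% to 54.9%, a fall of 0.32 ± 0.05 (adjusted p = 3e-06).

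Astrocyte genes were called in 6 of 18 cases, 5 up and 1 down. Aldoc, the brain aldolase gene, shows how small a shift the counts resolve. Its share was 44.7%, 46.2% and 47.1% at P15 and 47.4%, 48.6% and 49.3% in adults, without overlap, a rise of 0.14 ± 0.01 (adjusted p = 1.2e-12). Glul, which makes glutamine from glutamate and has 12.6% of its windows shared, rose by 0.21 ± 0.03 (adjusted p = 1.5e-07), and by 0.14 with the GC slope. Slc1a2, the main glial glutamate transporter gene, rose by 0.08 ± 0.01 (adjusted p = 6.6e-07). Clu, described above, was the only one that fell. Of microglia and complement genes 3 of 11 were called, all upward. Tmem119 rose by 0.51 ± 0.08, from a median share of 36% to 43.8% (adjusted p = 1.4e-06), and Ctss, a lysosomal protease gene, by 0.29 ± 0.05, from 39.1% to 43.9% (adjusted p = 1.4e-05). Selplg, a selectin ligand gene, had a change of 0.20 ± 0.07 (adjusted p = 0.0439) that was lost with DESeq2, with summed adult libraries and with each of the fits for the libraries. Only Rgs5, a pericyte gene, was called of 11 endothelial and mural genes, at -0.18 ± 0.04 (adjusted p = 0.00044), while 9 of those 11 were lower in level in adults.

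Among 11 serotonergic genes, 4 ratios rose and 1 fell. Htr1a went from CAST shares of 34.1%, 39.5% and 47.7% at P15 to 48.1%, 49.9% and 52.8% in adults, and P5 libraries lay at 45.5% to 57.6%. The groups did not overlap, the ratio rose by 0.53 ± 0.06 (adjusted p = 1.4e-10), or 0.47 with the GC slope, and the total level rose by 0.79 log2 units. Gchfr, which encodes the feedback regulator of the enzyme that starts synthesis of the tetrahydrobiopterin cofactor, was balanced at P15 (45%, 49.7% and 53%) and favoured CAST in adults (53%, 57.8% and 61.5%). Its ratio rose by 0.43 ± 0.05 (adjusted p = 5.6e-09). Pts, an enzyme gene of the same cofactor pathway, rose by 0.27 ± 0.06 (adjusted p = 0.0023), and Ddc, the decarboxylase that forms serotonin and dopamine, by 0.18 ± 0.03 (adjusted p = 4.6e-07). Tph2, the rate-limiting enzyme of brain serotonin synthesis, fell by 0.09 ± 0.02 (adjusted p = 0.0014), from a median share of 46.6% to 45.5%. The serotonin transporter gene Slc6a4 had a change of -0.01, which was not called.

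Other neuronal lists are given by their counts. Of 8 GABA and glutamate neuron genes, Slc17a8, a vesicular glutamate transporter gene of raphe neurons, rose by 0.28 ± 0.04 (adjusted p = 1.4e-06), from a median share of 31.5% to 34.9%. Abat, the GABA-degrading transaminase gene, had a change of 0.17 ± 0.03 (adjusted p = 3e-06) that was 0.08 with the GC slope (adjusted p = 0.0884). Of 14 neuropeptide precursors, 2 ratios rose and 4 fell. Sst, the somatostatin gene, went from 58.8% to 50.8% (-0.44 ± 0.06, adjusted p = 2.9e-07). This call was lost with the replicate block (-0.21, adjusted p = 0.113), a fit whose stage comparison draws only on P15 replicates 1 to 3 of each cross. Cck, the cholecystokinin gene, went from 49.6% to 43.5% (-0.32 ± 0.06, adjusted p = 2.4e-05), while Trh, the thyrotropin-releasing hormone gene, moved up from 32.6% to 37.6% (0.26 ± 0.05, adjusted p = 0.00014). Presynaptic genes were called in 5 of 24 cases, voltage-gated channel genes in 7 of 33, and receptors of glutamate, GABA and glycine in 3 of 23, 13%. In these lists the sizes of the called changes ran from 0.06 to 0.20, as in Syt11, a vesicle protein gene (-0.17 ± 0.02, adjusted p = 2.6e-10), Cacna2d1, a calcium channel accessory subunit gene (0.15 ± 0.03, adjusted p = 1.6e-05), and Gabbr2, a metabotropic GABA receptor subunit gene (0.12 ± 0.03, adjusted p = 0.0081). Of 15 genes of immature neurons and axon growth, 3 ratios rose and 2 fell, with Dclk1, a microtubule-associated kinase gene, at 0.23 ± 0.04 (adjusted p = 1.7e-05) and at 0.15 with the GC slope.

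**Figure D4:**
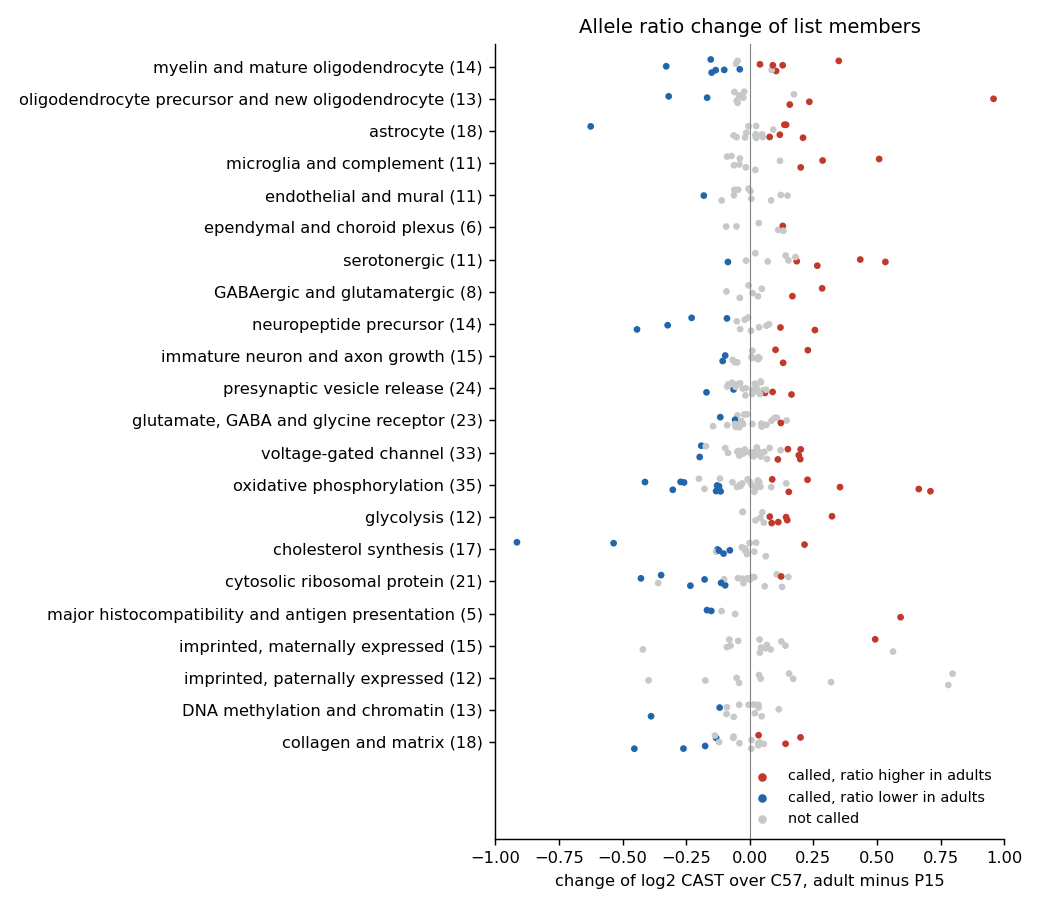
Change of the log2 CAST over C57 ratio from P15 to adult (horizontal axis) for each gene of 22 lists with 5 or more genes above the count limit; red points were called higher in adults, blue points lower, and grey points were not called. Points of most lists lie within 0.3 log2 units of 0 and on both sides of it, and 2 genes outside 1 log2 unit are not drawn.

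Metabolic lists had members among the larger shifts. Of 35 genes of oxidative phosphorylation, 6 ratios rose and 9 fell. Cox6c and Cox6a1, both cytochrome oxidase subunit genes, rose by 0.71 ± 0.04 and 0.66 ± 0.04 (adjusted p = 2.1e-18 and 2e-17). Cox6c shares went from 28.2%, 30.9% and 36% to 39.6%, 42.1% and 46.7%, and Cox6a1 shares from 48.3%, 51.3% and 54.9% to 55.9%, 63% and 67.6%, with no overlap in either gene. Their total levels moved in opposite directions, by 1.09 and -1.33 log2 units, and they have 8.37% and 9.16% of their windows in other genes. Uqcrc1, a core subunit of the cytochrome bc1 complex, fell by 0.41 ± 0.04 (adjusted p = 1.7e-10), from 53.9%, 61.6% and 66.5% to 52.0%, 53.3% and 55.7%. Glycolysis genes were called in 6 of 12 cases, all upward, by 0.08 to 0.32. They are deeply counted, with a median mean count of 3196, and of all genes with 3000 or more counts 43.3% were called. In the cholesterol synthesis list 1 ratio rose and 6 of 17 fell: beside Dhcr7, Hsd17b7, a sterol reductase gene, went from 42.5% to 33.8% (-0.54 ± 0.06, adjusted p = 6.6e-11). Ribosomal protein genes were called in 8 of 21 cases, 1 up and 7 down, and have copies in the genome. Collagen and matrix genes were called in 7 of 18 cases. Bcan, a brain proteoglycan gene, crossed from 48% (46.2% to 48.8%) to 51.2% (48.9% to 52.4%), a rise of 0.20 ± 0.02 (adjusted p = 4.2e-10), and Fn1, the fibronectin gene, moved away from balance, from 48.6% to 40.9% (-0.45 ± 0.07, adjusted p = 8.9e-07).

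Imprinted genes, whose copies differ by parent, were seldom called in this fit. It averages the change over both crosses, in which a shift of the maternal or paternal copy would move the CAST over C57 ratio in opposite directions. Few calls here therefore do not show that their parental balance was stable. Of 12 paternally expressed genes above the count limit 0 were called, and of 15 maternally expressed ones only Blcap, at 0.49 ± 0.07 (adjusted p = 1.9e-07). Blcap showed a wide gap between crosses at both stages that was smaller in adults: its CAST share ran from 48.5% to 58.6% in F1i and 21.4% to 29% in F1r at P15, and from 56% to 60.9% and 34.6% to 42.8% in adults, after 74.0% to 78.3% and 14.1% to 21.5% at P5. Of 13 DNA methylation and chromatin genes, Mbd1, a reader of methylated DNA, fell by 0.39 ± 0.06 (adjusted p = 8.5e-07), and Dnmt1, the maintenance methyltransferase gene, had a change of -0.12 ± 0.04 (adjusted p = 0.0281) that was lost when adult libraries were summed.

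The levels of the C57 and CAST alleles were also fitted alone. Of the 1581 genes, 467 had both alleles higher in adults (29.5%, beside 32.6% of all 7994 genes), 470 both lower (29.7%, beside 34.0%), 118 only the CAST allele higher, 112 only the C57 allele higher, 154 only the CAST allele lower and 114 only the C57 allele lower. Over all 7994 genes the level of the C57 allele was called in 74.3% and that of the CAST allele in 75.4%. Both alleles were called in opposite directions in 41 genes (2.59%, beside 0.513% of all) and neither was called in 105 (6.64%, beside 17.4%). This sorting depended on the GC slope. With the slope in the level fits, 443 genes had both alleles higher, 355 of them among the 467, and 406 had both lower, 350 of them among the 470. Only 13 had opposite directions, 5 of them among the 41: Zhx3, Scp2, Nat8f1, Chrna6 and Ywhaq, named after their values were seen. In Chrna6 the C57 allele was -0.45 and the CAST allele 0.28 (-0.26 and 0.40 with the slope), and in Zhx3, a transcriptional repressor gene, 0.26 and -0.22 (0.24 and -0.27). Clu, Dhcr7, Uqcrc1, Hmgn1 and Gucy1b1 had opposite directions without the slope and only 1 called allele with it.

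**Figure D5:**
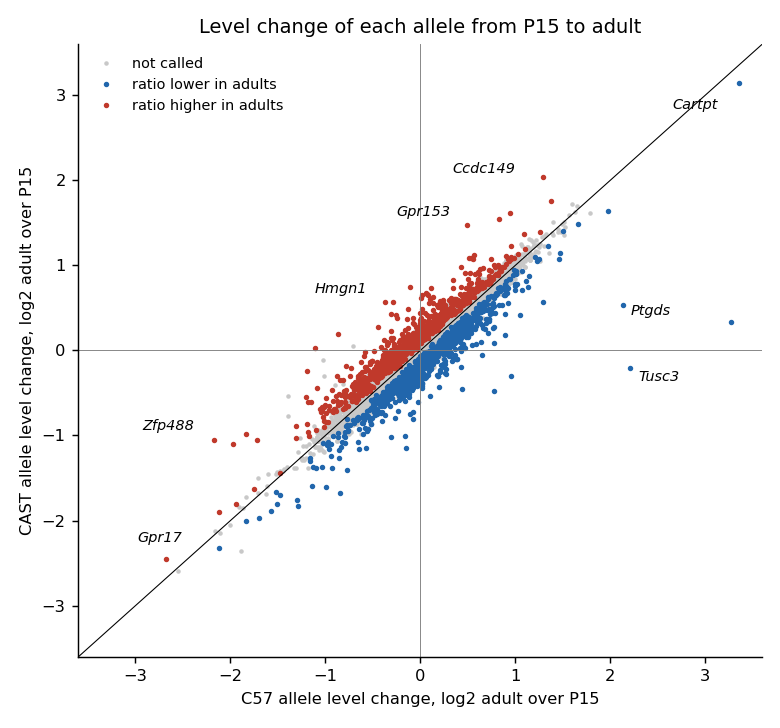
Change in level from P15 to adult (log2 units) of the C57 allele on the horizontal axis and of the CAST allele on the vertical axis, for the 7994 genes; red points have a higher ratio in adults, blue points a lower one, grey points were not called, and the diagonal marks equal change. Most called genes lie close to the diagonal, Ptgds lies far below it, and 2 genes outside 3.6 log2 units are not drawn.

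Ratio changes were set beside changes of the total level, in a fit of the summed counts. The level was called for 6239 of the 7994 genes, 78%, with 3012 higher (37.7%) and 3227 lower (40.4%) in adults, against 74.3%, 36.2% and 38.1% of all genes tested. It went with GC content: the median level change was -0.19 in the 1999 genes with the least GC and 0.25 in the 1999 with the most. With the library GC slope in the fit, which called 5710 genes, these medians were -0.01 and 0.00. The slope was computed from the levels of these same genes, so this flattening was built into that fit. The ratio was called in 20% of genes with a called level and in 19.1% of those without (336 of 1755). By direction, 297 genes had ratio and level both higher, 345 both lower, 302 a higher ratio and lower level and 301 the reverse. Across genes, which are not independent replicates and share the same libraries, Spearman's rho of the sizes of both changes was 0.01 and that of the signed changes 0.02.

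The share of called ratios was flat over most of the range of level changes and higher at its end. It was 20% for genes whose level differed by less than 0.1 log2 units (289 of 1446), 18.7% from 0.1 to 0.25, 18.9% from 0.25 to 0.5, 20.9% from 0.5 to 1 and 28.7% at 1 or more (66 of 230). Of genes at least 1 log2 unit lower in adults 37.4% were called (40 of 107), and of those at least 1 higher 21.1% (26 of 123). With the GC slope in both fits the same shares were 10.4%, 11.5%, 11.6%, 12.5% and 23.7%, and 12.3% of genes with a called level had a called ratio against 10% of the others. Genes with a steep change in level and a small one in ratio included Cartpt, the CART peptide gene, 3.25 log2 units higher in adults with a ratio change of -0.23 ± 0.06 (adjusted p = 0.0026), and Rgs5, 1.89 lower. The Cartpt ratio call was lost with limma at pseudocounts of 1 and 0.5 (adjusted p = 0.0721 and 0.0948), in F1r alone (-0.11, adjusted p = 0.487) and with the replicate block (-0.17, adjusted p = 0.34). Genes with a changed ratio at a total level within 0.1 included Col6a5, Hmgn1, Pttg1, the securin gene (-0.66 ± 0.09, adjusted p = 7e-08), and Gucy1b1. With the GC slope the level change was -0.02 for Col6a5, and was called for Hmgn1 at 0.22, Pttg1 at 0.18 (adjusted p = 0.00643) and Gucy1b1 at 0.20 (adjusted p = 7.03e-05).

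Of the 1581 genes, 426 were called in each cross fitted alone, and 0 were called in opposite directions; the genes were selected on both crosses together. The difference between crosses in the ratio change was called for 11 genes, 0.138%, against 0.128% of all genes tested, with 393 at an unadjusted p under 0.05; DESeq2 called 9 and limma 20. The 11 were Gm13340, Gm13339, Gm11410, Calcr, Klhdc10, Herc3, Ube3a, Inpp5f, Grb10, Begain and Impact, all named after their values were seen. Calcr, Klhdc10, Ube3a, Inpp5f, Grb10, Begain and Impact belong to the imprinted lists, and none of the 87 genes described here by the naming rule was among the 11.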

How the data were processed

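RNA was extracted from the dorsal raphe nucleus and sequenced as 50-base single reads from TruSeq libraries, per the labels' protocols. The authors deposited whole-number counts of reads per gene for each allele; Novoalign and mm9 are named in the submitters' processing notes, and how reads matching several loci, or strand, were handled is not given in the sources used here. Of 15499 genes, 14969 were matched by Ensembl ID to symbols and chromosomes, and no coordinates of the files' build were used.

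Each library entered as a pair of allele columns with the library total as its size. edgeR 4.0.16 (R 4.3.3) quasi-likelihood fits had terms for animal, allele, allele by cross and allele by stage, on the 12471 genes whose alleles together averaged at least 20 counts over 32 libraries. Adjusted p-values are Benjamini-Hochberg, called at 0.05, and come from edgeR unless another tool is named. Total and single-allele levels were fitted with stage and cross and TMM scaling. Relations with the level score used permutations within cross. The fits were tested on simulated data.

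The genes named were the 6 largest changes in each direction; the 10 largest in each direction with a mean of 10 or more counts of each allele at each stage, a call with summed adult libraries and at most 5% of 50-base windows shared; up to 8 that changed side; up to 3 called for each of 27 lists; and, by level, 4 with changes under 0.1 and 4 of the largest in each direction. The gene set and lists were chosen with earlier results of these data known. DESeq2 1.42.0 and limma 3.58.1 were alternatives, as were other scalings, filters, pseudocounts, left-out libraries, single crosses and a replicate block. X-linked genes were left out of the gene set. The depth of a library limits small shifts in genes of low counts.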

Additional observations from a re-analysis of the deposited data

Results flagged for a closer look

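In 20 of 346 groups of 7 or 9 libraries tested, the CAST share of 1 library lay far from the others of its group by Dixon's test; chance gives about 1 in 20 groups. Among P15 libraries, Col6a5 was at 81.7% in F1r replicate 2, Fcrls at 62.5% and Gucy1b1 at 43.6% in F1i replicate 1, Insig1 at 50.3% in F1r replicate 3 and Blcap at 21.4% in F1r replicate 6. Rps12 was at 99.8% in F1i replicate 1 and 99.7% in F1r replicate 7, where all others of the group were at 100%.

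Among F1i adults, Pfdn5 was at 76.7% in replicate 4, Cnp at 53% and Neu4 at 64.4% in replicate 5, Hk1 at 49.2% in replicate 9 and Fn1 at 34.1% in replicate 3. Among F1r adults, Gm6969 was at 99.8% in replicate 2, Hmgn1 at 59% in replicate 4, Gpr17 at 55% in replicate 8, Neu4 at 63.7% in replicate 6, Kif5c at 53.7% in replicate 5, Kcna6 at 49.6% in replicate 1, Cox6a1 at 55.9% in replicate 9 and Uqcrc1 at 55.2% in replicate 3. Fcrls and Gucy1b1 were both high in F1i replicate 1 at P15, one of the 3 P15 libraries of highest level score.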

How the results depend on the processing

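Against 1581 called ratio changes, 711 were called with F1i alone and 807 with F1r alone, on fewer samples. With the replicate block 681 were called, 636 of them among the 1581, and 72 of the 87 named genes. Sst, Dclk1, Gabbr2, Cartpt, Phyhip, Ccdc153, Rps3 and Dnmt1 were among those lost. The block gave a term to each number, the second label number in adults and the replicate number at P15. Numbers above 3 occur only at P15, so its stage comparison drew only on P15 replicates 1 to 3 of each cross. These hold the 3 P15 libraries of highest level score. The part of the fewer libraries in the losses was not tested. Deviations of the ratio in same-numbered libraries correlated at -0.03 to 0.09 in 7 P15 pairs and 0.07 to 0.08 in 3 adult pairs, each adult number best with itself and 2 of 7 at P15. Those of the total level correlated at 0.55 to 0.82 in the adult pairs and -0.44 to 0.78 at P15, so the numbers go with total level in adults and were not taken to pair the ratios. With the GC slope of each library, chosen after seeing the data as were the fits without libraries of extreme level score, 934 were called, and 705 genes were called for both ratio and level against 1245; the cause was not tested. Leaving out libraries gave 1306 to 1539 ratio calls, 5859 to 6371 level calls and 81 to 86 of the 87 named genes; the 1306 ratio calls came without the 3 P15 libraries lowest on the level score and the 6371 level calls without the 3 highest. DESeq2 gave 1407 ratio calls and limma 1640 to 1644. The cross difference was called for 20 genes with limma on log2 ratios against 11. Rps12 alone reversed, to 0.27 with limma and a pseudocount of 5 (adjusted p = 0.0908; its C57 counts at P15 are 0 to 2). Calls are limited by depth, as the rise from 9.77% to 43.3% with the mean count shows.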
